A study of Mus musculus with 23 samples.

Results

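The genes described are 10 components of the circadian clock, Arntl, Clock, Per2, Per3, Cry1, Cry2, Nr1d1, Nr1d2, Dbp and Tef, selected by symbol from the 27178 genes of the deposited table. All 10 passed the filter on low values. The rule of selection used no measured value, but earlier results of these data were known when the members were chosen. They were followed in 23 libraries of polyadenylated RNA from virally infected orbitofrontal cortex (OFC) of male wild-type C57BL/6J mice aged 8 weeks. Every animal had received an AAV6 vector with the Gfap promoter, which is active chiefly in astrocytes, on day 0. Its cargo was ZBTB7A (a transcription factor with zinc fingers), or GFP alone. On day 21 the animals went through subthreshold social defeat, a mild stressor, or the control condition. All were then tested for behaviour on days 22 to 27, and tissue was taken on day 28. The 4 groups were ZBTB7A with stress (5 libraries), ZBTB7A without stress (5), GFP with stress (8) and GFP without stress (5). A further label names the stressor for every sample, and the groups follow the label that separates the stress conditions. The labels give no hour of collection and do not say that each library came from a separate mouse, so the p-values measure the spread between these libraries only.

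In mammals the clock is a transcriptional feedback loop that runs through the day in nearly every cell. ARNTL (also called BMAL1) and CLOCK bind E-boxes and switch on the Per and Cry genes, whose proteins return to repress that pair, while NR1D1 and NR1D2 (REV-ERB alpha and beta) repress Arntl and ROR proteins activate it. DBP and TEF, transcription factors of the PAR bZIP family, carry the rhythm to output genes through D-boxes. In rodent cortex many of these transcripts are known to vary with time of day, and both neurons and astrocytes carry clocks.

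Promoters of 3 members are shown, those of Per3, Tef and Cry1, because they hold an E-box or a D-box, the elements through which the loop and its output factors act. Sequences are the 250 bases before the annotated start, 5′ to 3′ on the strand of the gene, from RefSeq on GRCm38.p6, and capitals mark the elements. The elements searched on both strands were the E-box CACGTG, the E-prime box CACGTT, the D-box TTATGNAA and the ROR element TAGGTCA or TGGGTCA. Of the 10 genes, 9 matched the RefSeq table with 13 starts, and Per2 did not. Per3 (chr4:151044666-151044915, minus strand) holds D-boxes 205 and 158 bases before its start, Tef holds an E-box 127 bases before the first start (chr15:81802423-81802672, plus strand) and 138 before the second (chr15:81811164-81811413, plus strand), and Cry1 (chr10:85185055-85185304, minus strand) holds an E-box at 60 and an E-prime box at 79.
Per3: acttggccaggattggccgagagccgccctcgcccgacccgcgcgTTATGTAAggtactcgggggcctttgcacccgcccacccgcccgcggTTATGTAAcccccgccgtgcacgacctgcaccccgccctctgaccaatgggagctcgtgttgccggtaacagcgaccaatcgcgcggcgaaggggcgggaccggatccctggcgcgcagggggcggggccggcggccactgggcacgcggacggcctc
Tef, first start: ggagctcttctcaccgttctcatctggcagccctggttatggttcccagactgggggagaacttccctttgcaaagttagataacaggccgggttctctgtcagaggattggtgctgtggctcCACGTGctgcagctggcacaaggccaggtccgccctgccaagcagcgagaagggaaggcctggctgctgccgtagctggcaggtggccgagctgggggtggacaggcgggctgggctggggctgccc
Tef, second start: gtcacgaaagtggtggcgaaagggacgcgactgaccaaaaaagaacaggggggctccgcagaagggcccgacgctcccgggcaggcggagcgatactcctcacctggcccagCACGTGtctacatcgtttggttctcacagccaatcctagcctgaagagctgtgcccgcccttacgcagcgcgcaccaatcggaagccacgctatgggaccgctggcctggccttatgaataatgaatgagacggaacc
Cry1: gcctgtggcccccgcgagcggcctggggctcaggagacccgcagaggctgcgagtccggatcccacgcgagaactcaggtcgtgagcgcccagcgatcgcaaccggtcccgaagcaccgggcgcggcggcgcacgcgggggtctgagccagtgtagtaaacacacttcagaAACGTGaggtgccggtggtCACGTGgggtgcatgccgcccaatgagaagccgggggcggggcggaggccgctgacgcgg
An E-prime box was also found in the windows of Cry2 and Nr1d1, while those of Arntl, Clock, Nr1d2 and Dbp held none of the elements searched. Over all 32851 promoters of the table, 6.02% held the E-box, 3.85% the E-prime box, 3.07% the D-box and 5.38% the ROR element. No window of the 9 genes held the ROR element letters. The matches describe letters in these windows.

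Libraries held 12.5 to 51.9 M reads assigned to genes, with group means of 30.2 ± 13.4 M in ZBTB7A stress, 24.5 ± 13.9 M in ZBTB7A control, 22.9 ± 13.96 M in GFP stress and 25.5 ± 8.48 M in GFP control (SD). The check of the vector came first. Zbtb7a averaged 3744 ± 173 normalized counts in ZBTB7A stress and 3716 ± 247 in ZBTB7A control libraries, against 3934 ± 251 in GFP stress and 3834 ± 629 in GFP control libraries. Its mean was not higher in the libraries labelled ZBTB7A. Because the labels do not give the species or form of the insert, group names below are those of the labels only. Cortical excitatory markers were present in every library (summed 102859 to 235993 normalized counts over 8 genes), but markers of striatal neurons were too, at 6860 to 145212 over 10 genes. The mean striatal level, in log2 units around the mean of all libraries, was 0.98 ± 0.61 in ZBTB7A stress, 0.10 ± 1.21 in ZBTB7A control, -0.97 ± 1.499 in GFP stress and 0.47 ± 0.65 in GFP control. No marker of the 9 cell type lists was at 0 in all libraries. In bulk tissue, fewer cells of a type and less RNA per cell cannot be told apart.

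All members were well counted, with Cry1, the lowest, at 240.0 to 1063 reads and Tef, the highest, at 5427 to 21454 reads per library. Per kilobase of exon in the basic GENCODE annotation (normalized counts over 23 libraries, mean ± SD), the 2 highest levels were those of Nr1d1 at 2003 ± 193 and Tef at 1959 ± 115, and with these lengths they did not differ beyond their spread, with Nr1d1 above Tef in 13 of 23 libraries. Below them came Dbp at 1233 ± 212, above Cry2 at 985 ± 57.7 in 20 of 23 libraries, and then Nr1d2 at 503 ± 36.4, below Cry2 in all 23. The remaining members lay close together. Per3 averaged 229 ± 19.8, Per2 214 ± 41.8, Clock 199 ± 11.5, Arntl 192 ± 28.2 and Cry1 163 ± 23.3. Per3 exceeded Per2 in 19 of 23 libraries, Per2 exceeded Clock in 13, Clock exceeded Arntl in 17 and Arntl exceeded Cry1 in 15. The means of neighbours in this stretch of the order differed by about their spread or less. The order depends on the length used. With the exons of the full annotation, the level of Nr1d1 was 1771 ± 171 and that of Tef 1173 ± 68.7, with Nr1d1 above Tef in all 23 libraries. The level of Arntl was then 78.8 ± 11.6, lower by a factor of 2.43 than with the basic exons and the lowest of the 10, and those of Tef, Dbp and Per3 were lower by factors of 1.67, 1.63 and 1.60. Nr1d1, Tef, Dbp, Cry2 and Nr1d2 held the first 5 places by mean, in that order, with both lengths. With the full annotation Dbp was above Cry2 in only 16 of 23 libraries. The library kit does not mark strand, and exons on the opposite strand overlap, in the full annotation, 18.0% of the exon bases of Dbp (Sphk2), 8.55% of Nr1d1 (Thra), 4.67% of Cry2 (D930015M05Rik), 2.45% of Tef (Gm17597) and 0.439% of Arntl (Gm45355). Reads in those stretches cannot be assigned to one strand.

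**Figure D1:**
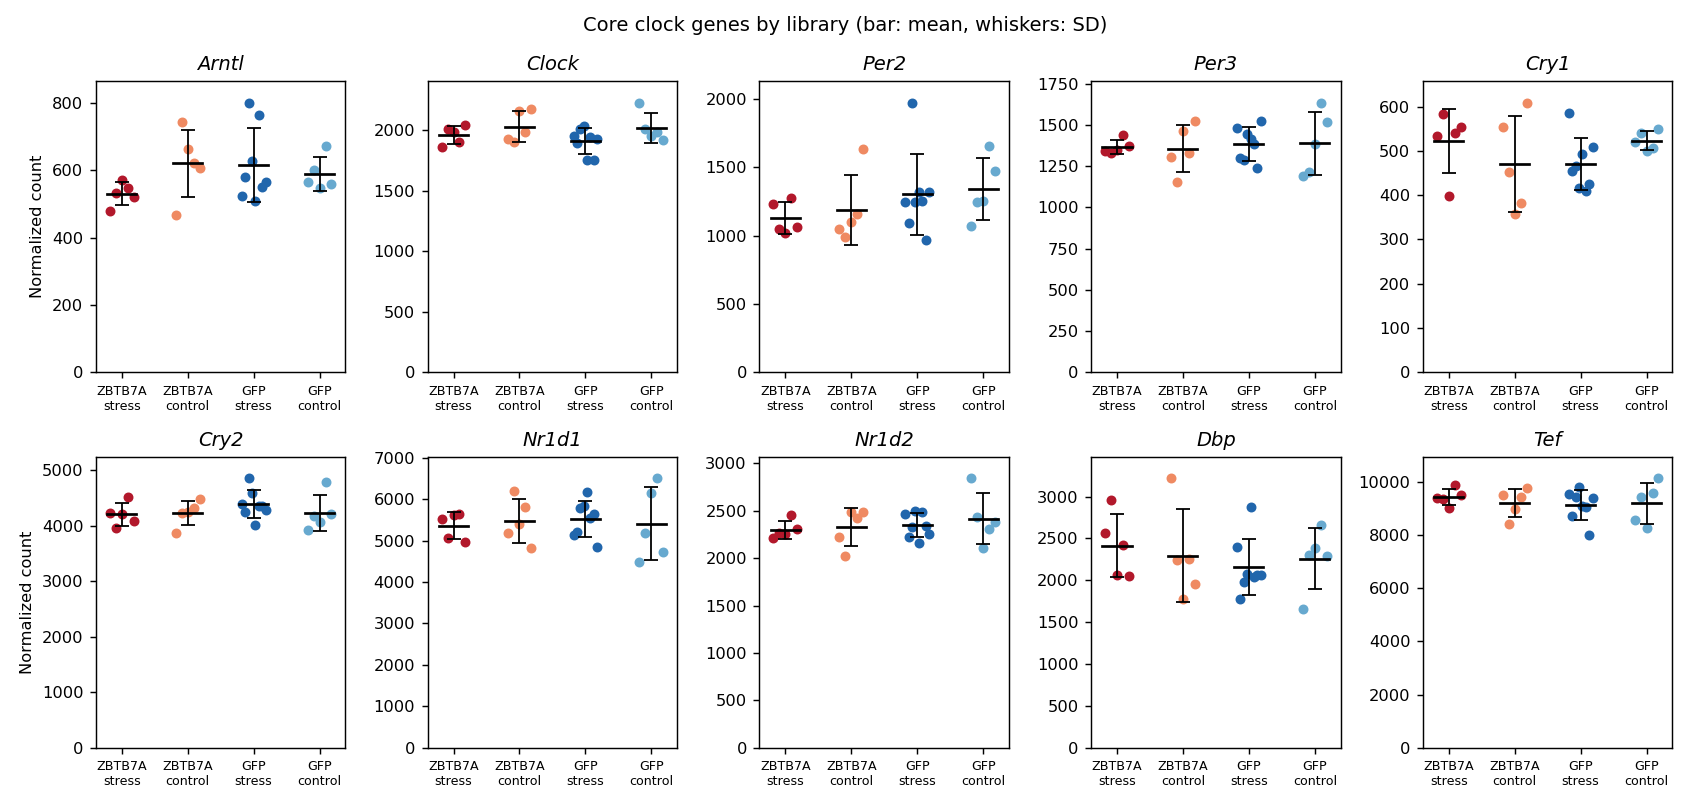
Normalized counts of the 10 core clock genes in each of 23 libraries (points), by group from ZBTB7A stress to GFP control, with the group mean (bar) and SD (whiskers); each vertical axis starts at 0. In every panel the 4 groups overlap.

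None of the 10 members passed the test in any comparison. The comparisons ask what the ZBTB7A vector did to transcripts without and with the stressor, and what the stressor did under each vector. A limma fit across 16385 genes, with Benjamini-Hochberg adjustment, called 0 of 10 members in ZBTB7A control against GFP control, where 0% of all genes were called, and 0 of 10 in ZBTB7A stress against GFP stress, where 0% were called. It likewise called 0 of 10 in GFP stress against GFP control (0% of all genes), in ZBTB7A stress against ZBTB7A control (0%) and in the interaction of vector and stress (0%). At an unadjusted p under 0.05 the members were again 0 of 10 in each, beside 1.73% of all genes in ZBTB7A control against GFP control, 16.1% in ZBTB7A stress against GFP stress, 11.2% in GFP stress against GFP control, 1.66% in ZBTB7A stress against ZBTB7A control and 7.42% in the interaction. Non-overlapping groups were found for 0 of 10 members in every pair, beside 0.226% of all genes in ZBTB7A control against GFP control, 1% in ZBTB7A stress against GFP stress, 0.372% in GFP stress against GFP control and 0.421% in ZBTB7A stress against ZBTB7A control. edgeR on recovered reads also called 0 genes in each comparison. DESeq2 called 81 of the 16385 genes in ZBTB7A stress against GFP stress and 39 in GFP stress against GFP control, with 0 core clock genes among them. With so few genes called, 0 of 10 is not read as a result about the members.

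The intervals give the size of change that these data leave possible. In ZBTB7A control against GFP control, the members' fold changes ran from 0.881 to 1.05, and their 95% intervals reached from 0.706 (Per2) to 1.24 (Dbp). The median size of the log2 fold change was 0.029 over the members and 0.063 over all genes tested, and 6 of 10 members were above 0, beside 44.7% of all genes. All genes tested include many with lower counts than the members, so the median sizes here and below are not like for like. A median over genes of like mean was not computed. In ZBTB7A stress against GFP stress, fold changes were 0.873 to 1.12 with intervals from 0.721 (Per2) to 1.35 (Dbp). There the median size was 0.055 over the members and 0.11 over all genes, with 4 of 10 above 0, beside 51.4% of all genes. For GFP stress against GFP control, fold changes were 0.893 to 1.04 with intervals from 0.757 (Cry1) to 1.21 (Arntl), the median size was 0.051 against 0.097, and 4 of 10 were above 0, beside 48.4%. For ZBTB7A stress against ZBTB7A control, they were 0.862 to 1.12 with intervals from 0.726 (Arntl) to 1.35 (Cry1), the median size was 0.041 against 0.066, and 4 of 10 were above 0, beside 52.5%. In the interaction, 6 of 10 were above 0, beside 52.4% of all genes, so members were spread over both directions throughout.

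**Figure D2:**
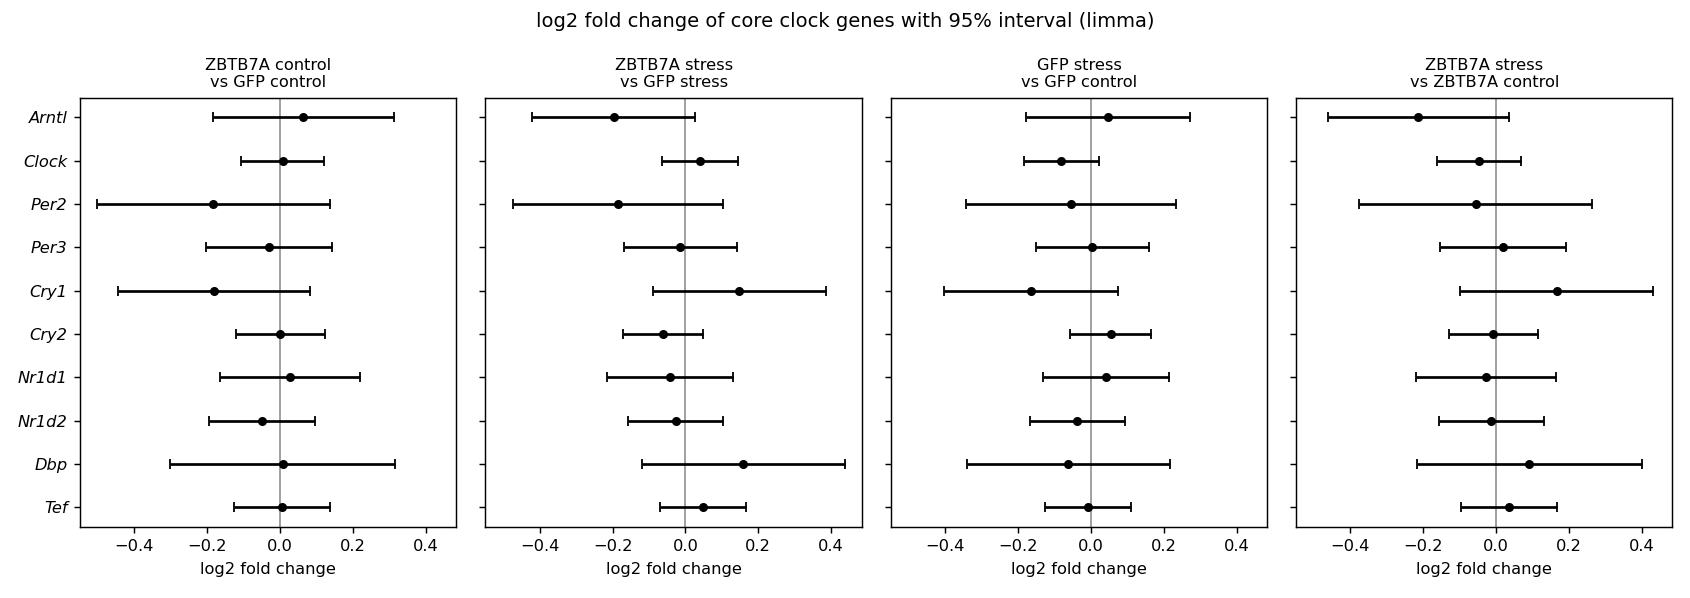
Log2 fold change (points) with 95% interval (lines) of the 10 core clock genes in the 4 group comparisons, from limma on log2(normalized count + 1). Every interval crosses 0, and Per2, Dbp, Cry1 and Arntl have wider intervals than Clock, Cry2 and Tef.

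Of the activators, Arntl, the obligate partner of CLOCK, had the lowest p among members in ZBTB7A stress against GFP stress. Its normalized counts were 481, 522, 532, 549 and 570.2 in ZBTB7A stress libraries and 508 to 802 with a median of 573 in the 8 GFP stress libraries. Counts were 469, 607, 623, 664 and 743 in ZBTB7A control and 549, 559, 566, 600.4 and 673 in GFP control libraries. The ZBTB7A stress libraries form the tightest and lowest set, yet overlap with each other group and lie wholly inside the range of the ZBTB7A control libraries. The log2 fold change was -0.20 ± 0.11 (SE, adjusted p = 0.360 by limma) in ZBTB7A stress against GFP stress, and an exact two-sided permutation test gave p = 0.0901. It was -0.21 ± 0.12 in ZBTB7A stress against ZBTB7A control (limma adjusted p = 1.00), and 0.064 ± 0.12 in ZBTB7A control against GFP control. With the striatal level as a covariate, a measure that was itself higher in ZBTB7A stress than in GFP stress libraries, the Arntl difference between those groups was 0.023 on the log2 scale. Within the 3 number runs, the passes of the title numbers through the groups, the difference between those groups was -0.30, 0.015 and -0.21. The second run held 1 ZBTB7A stress library.

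Clock, the DNA-binding partner of ARNTL, was among the steadiest members. It averaged 1961 ± 75.5 in ZBTB7A stress, 2029 ± 128 in ZBTB7A control, 1909 ± 107 in GFP stress and 2019 ± 122 in GFP control libraries (SD, n = 5, 5, 8 and 5). Its log2 fold change was -0.081 ± 0.050 in GFP stress against GFP control (SE, adjusted p = 0.542 by limma), the lowest p among members in that comparison. Between the stressed groups, ZBTB7A against GFP, it was 0.040 ± 0.050.

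Among the repressors, Per2, whose protein inhibits ARNTL and CLOCK together with the cryptochromes, varied most. Its normalized counts were 1016, 1049.7, 1062, 1229 and 1279 in ZBTB7A stress libraries and 964 to 1975 with a median of 1250.1 in GFP stress libraries. They were 992, 1047, 1099, 1162 and 1637 in ZBTB7A control and 1072, 1249, 1253, 1472 and 1658 in GFP control libraries. A single library stands high in the ZBTB7A control and the GFP stress groups, and all groups overlap. The log2 fold change was -0.18 ± 0.14 in ZBTB7A stress against GFP stress and -0.18 ± 0.15 in ZBTB7A control against GFP control (SE), with exact two-sided permutation p = 0.214 for the stressed and 0.294 for the unstressed libraries. Per3, a paralog, averaged 1368 ± 43.8 in ZBTB7A stress, 1356 ± 143 in ZBTB7A control, 1385 ± 101 in GFP stress and 1389 ± 192 in GFP control libraries (SD, n = 5, 5, 8 and 5). Its log2 fold changes lay between -0.030 and 0.019 in the 4 comparisons.

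Cry1, a cryptochrome and a strong repressor of the loop, had normalized counts of 398, 533, 541, 554 and 583 in ZBTB7A stress libraries and 409.9 to 585 with a median of 460.2 in GFP stress libraries. In ZBTB7A control libraries they were 357, 382, 451, 554 and 609, the widest set, and in GFP control libraries 499.7, 506, 519, 541 and 550.3, the narrowest. The GFP control values sit inside the range of every other group. Cry1 had the lowest interaction p of the members, with a log2 difference of 0.33 ± 0.17 between the stress effects under ZBTB7A and under GFP (SE, adjusted p = 0.674 by limma). The stress effect itself was 0.17 ± 0.13 under ZBTB7A and -0.16 ± 0.12 under GFP, the second with an exact two-sided permutation p of 0.0684. The stress effect under GFP was -0.087, -0.15 and -0.31 within the 3 number runs, the last with 1 GFP control library. With the striatal level as a covariate the interaction of Cry1 was 0.049 and its stress effect under GFP was 0.010. Cry2, the other cryptochrome, averaged 4204 ± 211 in ZBTB7A stress, 4228 ± 219 in ZBTB7A control, 4388 ± 247 in GFP stress and 4229.8 ± 329 in GFP control libraries (SD, n = 5, 5, 8 and 5). Its 4 log2 fold changes ran from -0.061 to 0.054.

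The nuclear receptors of the stabilising loop gave small differences between groups, none past the test. Nr1d1, a repressor of Arntl, averaged 5356 ± 325 in ZBTB7A stress, 5475 ± 539 in ZBTB7A control, 5519 ± 431 in GFP stress and 5406 ± 881 in GFP control libraries (SD, n = 5, 5, 8 and 5). Nr1d2, its paralog, averaged 2300.3 ± 94.5 in ZBTB7A stress, 2328 ± 202 in ZBTB7A control, 2345 ± 127 in GFP stress and 2413 ± 269 in GFP control libraries (SD, n = 5, 5, 8 and 5). The log2 fold changes of Nr1d1 lay between -0.042 and 0.041, and those of Nr1d2 between -0.050 and -0.014.

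Dbp, a direct target of ARNTL and CLOCK with a strong daily rhythm in mouse tissues, had normalized counts of 2052, 2065, 2421, 2570.2 and 2956 in ZBTB7A stress libraries and 1782 to 2876 with a median of 2068 in GFP stress libraries. Counts were 1782, 1960.0, 2244, 2255 and 3219 in ZBTB7A control and 1662, 2287, 2306, 2387 and 2657 in GFP control libraries. The highest value of all belonged to a ZBTB7A control library and the lowest to a GFP control library. The log2 fold change was 0.16 ± 0.13 (SE, adjusted p = 0.549 by limma) in ZBTB7A stress against GFP stress. It was 0.44, -0.24 (with 1 ZBTB7A stress library) and 0.11 within the 3 number runs, and -0.087 with the striatal level as a covariate. Tef, of the same family, averaged 9429.8 ± 306 in ZBTB7A stress, 9215 ± 532 in ZBTB7A control, 9129.6 ± 567 in GFP stress and 9191 ± 771 in GFP control libraries (SD, n = 5, 5, 8 and 5), and its log2 fold changes lay between -0.0081 and 0.049. Over the 10 members, the sign of the log2 difference was the same in all 3 number runs for 3 members in ZBTB7A stress against GFP stress, 2 in GFP stress against GFP control, 1 in ZBTB7A control against GFP control and 0 in ZBTB7A stress against ZBTB7A control. The share over all genes was not computed, and in each comparison a run had 1 library in a group. These counts are therefore not read as a result about the members.

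A list of 22 further clock genes gave no call either, with 0 past the adjusted threshold in each comparison. At an unadjusted limma p under 0.05 there were 5 of 22 in ZBTB7A stress against GFP stress, beside 16.1% of all genes, and among them were Arntl2, Rorb, Hlf and Bhlhe40. In GFP stress against GFP control there were 2 of 22, beside 11.2% of all genes, and Btrc was among them. Neither share is read as a result about the list. Bhlhe40, an E-box repressor, had a log2 fold change of -0.43 ± 0.17 (SE, limma adjusted p = 0.258) and Hlf, the third PAR bZIP factor, -0.21 ± 0.087 (adjusted p = 0.270) in ZBTB7A stress against GFP stress. In GFP stress against GFP control, Btrc, an adaptor for PER degradation, had 0.12 ± 0.054 (adjusted p = 0.426) and Gsk3b, a kinase that acts on clock proteins, -0.087 ± 0.043. The lowest p in the other comparisons belonged to Rora, Usp2 and Nfil3 (-0.17 ± 0.15, 0.088 ± 0.076 and 0.13 ± 0.15 in ZBTB7A control against GFP control) and to Timeless, Hlf and Cipc (0.25 ± 0.13, -0.13 ± 0.097 and 0.057 ± 0.043 in ZBTB7A stress against ZBTB7A control).

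Single libraries differed more than group means. The highest library exceeded the lowest by 2.05-fold for Per2, 1.94-fold for Dbp, 1.71-fold for Arntl and 1.70-fold for Cry1, but by only 1.27-fold for Clock, 1.27-fold for Tef and 1.25-fold for Cry2. Around the group means, the SD on the log2 scale was 0.26 for Per2, 0.25 for Dbp, 0.21 for Cry1 and 0.20 for Arntl. Among genes of like mean (within 0.5 log2), those spreads stood at percentiles 88.4, 86.2, 77.1 and 76.4. Clock (0.080), Cry2 (0.085) and Tef (0.091) stood at percentiles 15.2, 13.8 and 14.1. Nr1d1, Per3 and Nr1d2 lay between, at percentiles 51.7, 56.7 and 35.9. Over the 10 members the median SD was 0.14, below the 0.19 of all genes tested, and 6 members were above the median of genes of like mean. Single libraries held several extremes. GFP stress library 5 was highest for Arntl, Per2 and Cry2, GFP stress library 21 lowest for Clock, Per2 and Tef, and ZBTB7A control library 6 lowest for Arntl and Cry2 but highest for Dbp. GFP control library 1 was lowest for Nr1d1 and Dbp and highest for Clock and Nr1d2. These libraries were also at an end of marker levels, as were other libraries. GFP stress 5 had the lowest oligodendrocyte (-1.37) and highest excitatory level (0.52), and GFP stress 21 the highest olfactory bulb level (1.95). ZBTB7A control 6 had the highest striatal (2.08) and lowest excitatory level (-1.17), and GFP control 1 the highest choroid plexus level (2.76). GFP stress 20 had the lowest striatal level (-2.55) and GFP control 10 the highest oligodendrocyte level (1.21), yet neither held an extreme for any member. GFP control 11, highest for Per3 and Nr1d1, was at no end of a cell type level. The part of tissue composition in the extremes of the members was not tested. No ZBTB7A stress library held an extreme for any member.

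Some members varied together after group means were removed. Correlations below are over the 23 libraries, which share their processing and tissue composition, and are descriptions without a p. Per2 went with Cry2 (Pearson r = 0.68, Spearman rho = 0.58) and with Tef (r = 0.65, rho = 0.73), and Per3 went with Tef (r = 0.62, rho = 0.60). Clock went with Nr1d2 (r = 0.68, rho = 0.67) and ran against Dbp (r = -0.61, rho = -0.54). Arntl went with Cry2 (r = 0.62, rho = 0.57) and ran weakly against Dbp (r = -0.42, rho = -0.38). The paralogs Nr1d1 and Nr1d2 ran against each other (r = -0.52, rho = -0.41), while Per2 and Per3 went together (r = 0.54, rho = 0.64). Without the 2 libraries farthest from the median of the first gene, r was 0.56 for Per2 and Cry2, 0.65 for Clock and Nr1d2, 0.72 for Per2 and Tef, 0.55 for Per3 and Tef, 0.43 for Arntl and Cry2, -0.60 for Clock and Dbp, -0.38 for Nr1d1 and Nr1d2, 0.79 for Per2 and Per3 and -0.23 for Arntl and Dbp. Correlations of this size were common in the table. Of the 45 pairs of members, 13.3% reached a size of 0.6 against 9.85% of all pairs of well measured genes, with a median size of 0.30 against 0.27. Pairs below 0 were 31.1% of member pairs against 50.2% of all pairs.

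**Figure D3:**
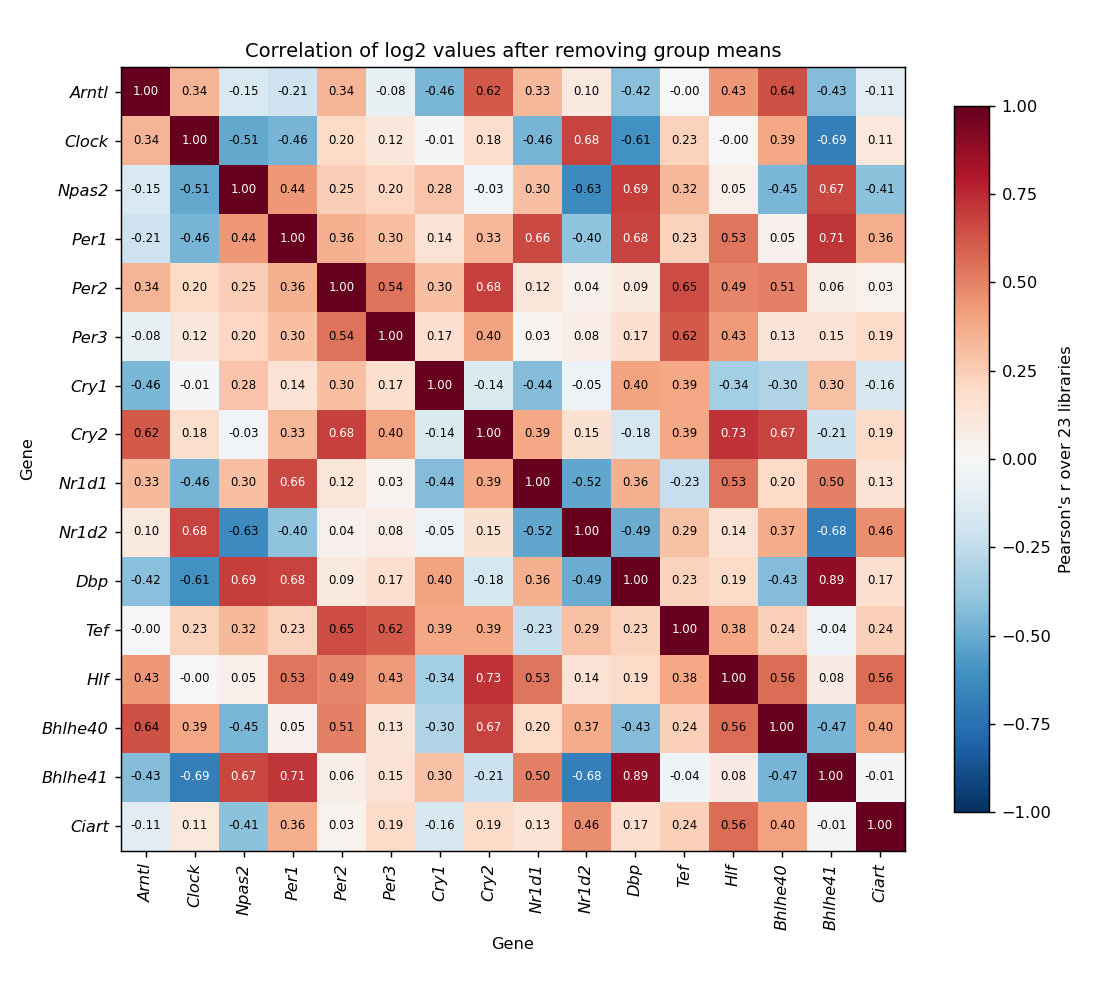
Pearson's r over 23 libraries, after removal of group means, between the 10 core clock genes and 6 further clock genes, coloured from -1 (blue) to 1 (red). Dbp, Per1, Npas2 and Bhlhe41 are positively correlated with one another, and Clock and Nr1d2 have negative correlations with all 4.

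The closest tie to a clock gene outside the 10 was between Dbp and Bhlhe41, an E-box repressor of the loop, with r = 0.89 and rho = 0.84. It was 0.86 to 0.90 with each library left out, and 0.82 without the 2 libraries farthest in Dbp. Dbp also went with Per1, a target of ARNTL and CLOCK (r = 0.68, rho = 0.66), and with Npas2, a paralog of Clock (r = 0.69, rho = 0.62). Arntl went with Bhlhe40 (r = 0.64, rho = 0.60). Many genes outside the clock lay closer than most of these. Among 13329 genes ranked by r with Dbp, Bhlhe41 stood at 5, Npas2 at 433 and Per1 at 487. Ranked by r with Arntl, Bhlhe40 stood at 871. With striatal and oligodendrocyte levels as covariates, the tie of Arntl was 0.11 to Bhlhe40, 0.19 to Cry2 and -0.13 to Dbp. With the same covariates r was 0.88 for Dbp and Bhlhe41, 0.72 for Dbp and Per1 and 0.55 for Dbp and Npas2. Among the members it was 0.66 for Clock and Nr1d2, -0.54 for Clock and Dbp, 0.67 for Per2 and Cry2, 0.57 for Per2 and Tef, 0.64 for Per3 and Tef, 0.54 for Per2 and Per3 and -0.69 for Nr1d1 and Nr1d2. Levels of other cell types were not in this fit. Without covariates, Dbp went with astrocyte and microglia markers at r = 0.42 and 0.39, and Bhlhe41 at 0.55 and 0.50.

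**Figure D4:**
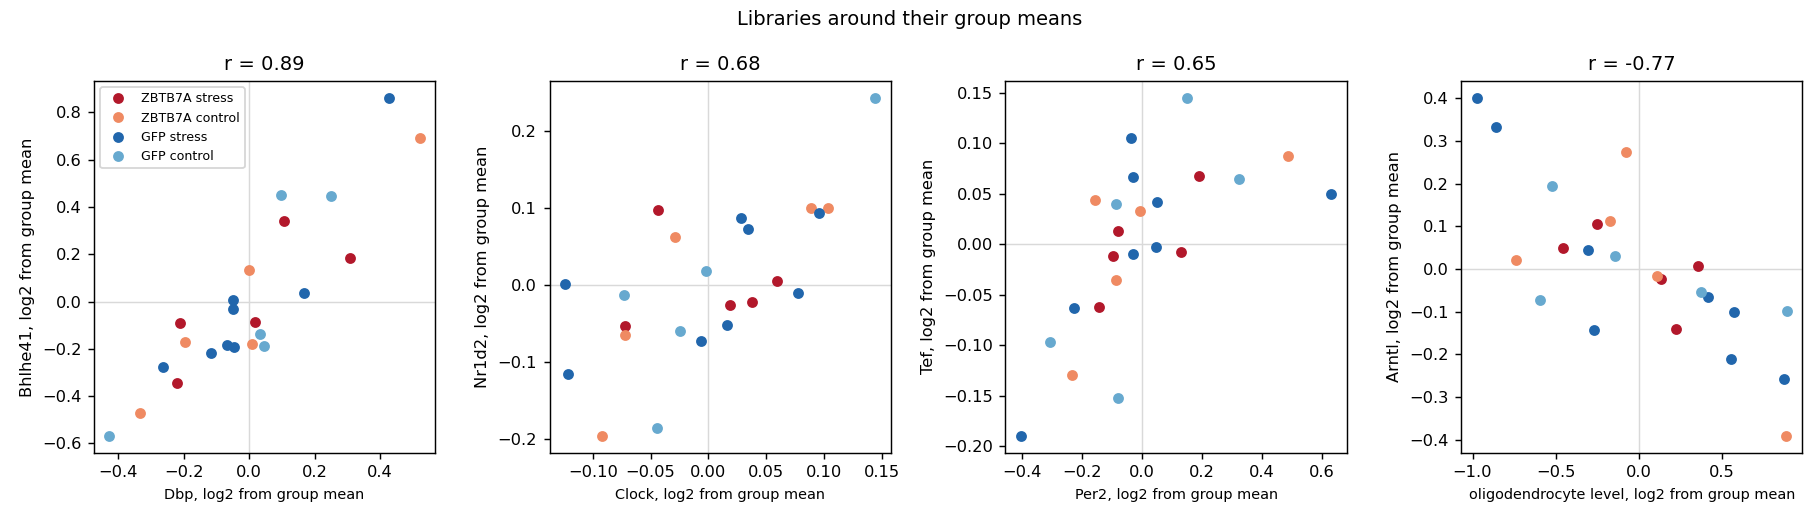
Log2 values of the 23 libraries relative to their group mean for Dbp against Bhlhe41 (r = 0.89), Clock against Nr1d2 (r = 0.68), Per2 against Tef (r = 0.65) and the oligodendrocyte level against Arntl (r = -0.77), coloured by group. Points of all 4 groups lie along each trend.

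Several members moved with markers of tissue composition. Arntl ran against oligodendrocyte markers (r = -0.77), choroid plexus and ependyma markers (r = -0.68) and striatal markers (r = -0.65), and went with excitatory neuron markers (r = 0.70). Cry2 showed the same signs, with r = 0.71 for excitatory neurons and -0.71 for oligodendrocytes. Cry1 went with the striatal level (r = 0.65) and against the excitatory level (r = -0.59), and Dbp went with the striatal level (r = 0.58). The oligodendrocyte level was 0.26 ± 0.34 in ZBTB7A stress, 0.042 ± 0.59 in ZBTB7A control, -0.39 ± 0.70 in GFP stress and 0.32 ± 0.63 in GFP control libraries (log2 around the mean of all libraries, SD). Its 8 markers summed to 93567 to 157434 normalized counts in ZBTB7A stress, 64499 to 189429 in ZBTB7A control, 41431 to 151384 in GFP stress and 84512 to 244159 in GFP control libraries. The 10 striatal markers summed to 35552 to 95069.5 in ZBTB7A stress, 14808 to 145212 in ZBTB7A control, 6860 to 54687 in GFP stress and 25323 to 69500 in GFP control libraries. The excitatory level was -0.23 ± 0.28 in ZBTB7A stress, -0.12 ± 0.59 in ZBTB7A control, 0.25 ± 0.19 in GFP stress and -0.046 ± 0.29 in GFP control libraries, and the choroid plexus level was -0.071 ± 0.39 in ZBTB7A stress, -0.13 ± 0.90 in ZBTB7A control, -0.76 ± 0.66 in GFP stress and 1.41 ± 1.10 in GFP control libraries. The part of these levels in the values of Arntl, Cry1, Cry2 and Dbp was not tested beyond the fits with striatal and oligodendrocyte levels as covariates. The list of 10 glucocorticoid-induced genes, which stress hormones raise, correlated with the members at -0.28 to 0.24. Its level was 0.59 in GFP control library 2 and -0.22 to 0.15 in all others, so low correlations with it say little. The list of 12 immediate early genes, which neuronal activity raises, correlated at -0.15 to 0.28, and endothelial markers at -0.17 to 0.23. Correlations with the number of reads ran from -0.26 (Dbp) to 0.42 (Nr1d2).

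**Figure D5:**
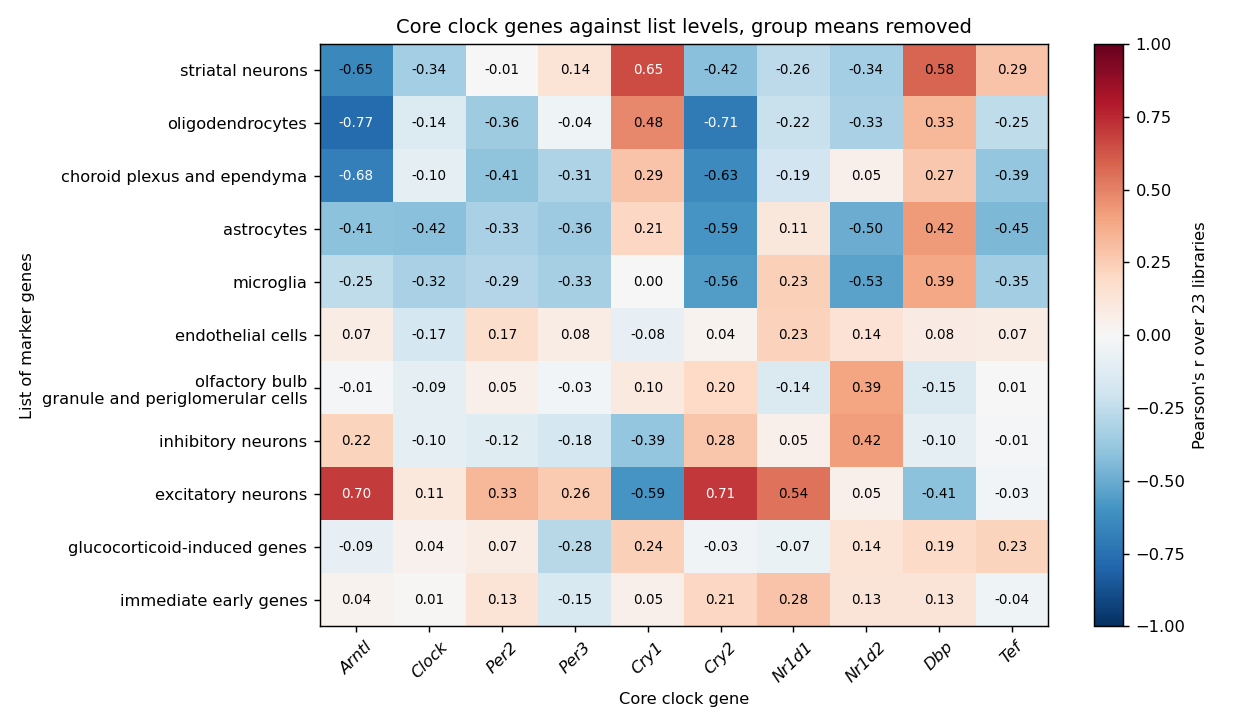
Pearson's r over 23 libraries, after removal of group means, between each core clock gene and the mean level of 9 cell type marker lists and of 2 response lists. Arntl and Cry2 run with excitatory neuron markers and against oligodendrocyte markers, and the glucocorticoid and immediate early lists stay within -0.28 and 0.28 for every member.

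Genes outside the members with the most similar pattern were found among 13329 genes by Pearson's r of values centred on group means. Those most like Arntl were Ube2e2 and Slc39a10 (both r = 0.86), Sertm1, Ankrd42 and Smarca2 (each 0.85), and those most opposite were Qtrt2 and D7Ertd443e (both -0.86) and Rec8 (-0.84). Those most like Dbp were Tlnrd1 (0.94), Pou3f1 (0.91), Acvrl1 (0.90), Sun2 and Bhlhe41 (both 0.89), and those most opposite were Erp44 (-0.92), Vcpip1 and Rps15a (both -0.89). Bhlhe41 was the one clock gene among these.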

How the data were processed

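The authors deposited 1 table of normalized counts, a signal in reads divided by a size factor for each of 23 libraries. Per the submitters' processing notes the tools were featureCounts 2.0.1 and HISAT2 2.1.0 as well as DESeq2 2.11.40.6, beside the builds mm10 and mm9 without saying which served what. Per the labels' protocols, extraction used Trizol and then RNeasy Micro columns, and the library kit was TruSeq RNA v2. The table has no correction for gene length. In each library 100% of the deposited values were whole multiples of 1 step within 0.02 reads, so whole reads were recovered for count tests. Removing 428 identical repeats among 27606 entries left 27178 genes, 4174 of them at 0 throughout. The number of value columns without a sample was 0.

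The tested set of 16385 genes reached a normalized count of 10 in 5 libraries or more. Limma 3.58.1 (R 4.3.3, trended and robust empirical Bayes) was fitted to log2(normalized count + 1) over 4 group means. Fold changes on this scale understate changes of low genes. Tests were two-sided, with Benjamini-Hochberg adjustment over all genes tested and a threshold of 0.05. Single members were also tested by exact permutation over libraries. Alternatives were tests of recovered reads by DESeq2 1.42.0 and edgeR 4.0.16, a pseudocount of 5, other filters (none, or a mean of 50), TMM scaling, array weights, number run (the 3 passes of the title numbers through the groups) and marker levels as covariates, and each library left out. A list level averages the centred log2 values of its genes. Levels per kilobase use the exon union of GENCODE vM21 basic, with that of the full annotation as an alternative added after the data were seen. Members, lists and tests were chosen with earlier results of these data known. All members are named. Of the further clock genes, those with the 3 lowest p per comparison are named, and for Arntl and Dbp the 5 most similar and 3 most opposite genes with a mean of 50 or more. Some genes taken by this rule are not reported here. Arntl2 and Rorb were named outside this rule, after their values were seen. The limma script was tested on simulated data.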

Additional observations from a re-analysis of the deposited data

Results flagged for a closer look

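Each of 40 sets of a member in a group was checked for a single library far from the others by Dixon's criterion at 95%, which chance meets in about 1 set in 20. Of these, 3 met it. Per2 in ZBTB7A control had 1 high library, number 24, at 1637 normalized counts, with the next at 1162 and the lowest at 992, so that the gap was 0.736 of the range. Per2 in GFP stress had 1 high library, number 5, at 1975, with the next at 1319 and the lowest at 964, a gap of 0.649 of the range. Cry1 in ZBTB7A stress had 1 low library, number 17, at 398, with the next at 533 and the highest at 583, a gap of 0.728 of the range. GFP stress library 5 was also the highest of all 23 for Arntl and Cry2, and had the lowest oligodendrocyte level (-1.37). No interaction of vector and stress passed the test for a member.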

How the results depend on the processing

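The count of members called stayed at 0 of 10 in every comparison under each of the alternatives run. Most settings called 0 of all genes too, so this is not read as a result about the members. The results that moved are the counts over all genes (of 16385 tested with DESeq2 and with array weights) and the signs of small differences. DESeq2 called 81 genes in ZBTB7A stress against GFP stress, 39 in GFP stress against GFP control, 1 in ZBTB7A stress against ZBTB7A control and 3 in the interaction, and array weights called 2287 in ZBTB7A stress against GFP stress, 668 in GFP stress against GFP control and 2068 in the interaction. With each library left out, the count over all genes ranged from 0 to 3 in ZBTB7A stress against GFP stress and from 0 to 79 in the interaction, the highest without ZBTB7A control library 6 (79) and the others without GFP stress library 13 (3 and 2), ZBTB7A stress library 17 (1) and GFP stress library 22 (1). The cause was not tested.

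The members' small log2 fold changes changed sign under the settings below, in values that never passed the threshold. With the striatal level as a covariate the reversed values in ZBTB7A stress against GFP stress were Arntl 0.023, Cry1 -0.088, Nr1d1 0.024, Nr1d2 0.035 and Dbp -0.087. In GFP stress against GFP control they were Arntl -0.11, Cry1 0.010, Nr1d1 -0.0073, Dbp 0.12 and Tef 0.025. In ZBTB7A control against GFP control they were Clock -0.0017 and Cry2 -0.010. In the interaction they were Per2 0.0018, Per3 -0.021, Cry2 0.0099, Nr1d1 0.0087, Dbp -0.14 and Tef -0.0099. For ZBTB7A stress against ZBTB7A control they were Cry2 0.019, Nr1d1 0.0014, Nr1d2 0.014 and Dbp -0.020. With striatal and oligodendrocyte levels as covariates, an alternative added after the data were seen, the reversed values in ZBTB7A control against GFP control were Arntl -0.0082, Cry2 -0.027 and Tef -0.0032. In ZBTB7A stress against GFP stress they were Arntl 0.025, Cry1 -0.088, Cry2 0.00069, Nr1d1 0.025, Nr1d2 0.036 and Dbp -0.087. In GFP stress against GFP control they were Arntl -0.16, Cry1 0.020, Cry2 -0.015, Nr1d1 -0.013 and Dbp 0.11. In the interaction they were Arntl 0.033, Per2 0.045, Per3 -0.013, Cry2 0.027, Nr1d1 0.013 and Dbp -0.14. For ZBTB7A stress against ZBTB7A control they were Cry2 0.012, Nr1d2 0.012 and Dbp -0.022. With array weights the reversed values in the interaction were Clock -0.020, Per3 -0.049 and Nr1d2 -0.024. For ZBTB7A control against GFP control they were Per3 0.041, Dbp -0.11 and Tef -0.027. For ZBTB7A stress against ZBTB7A control they were Per3 -0.0046. With number run as a covariate the reversed values in the interaction were Per2 0.0087. For GFP stress against GFP control they were Per3 -0.0013. For ZBTB7A control against GFP control they were Cry2 -0.0078. For ZBTB7A stress against ZBTB7A control they were Cry2 0.00015 and Nr1d1 0.014. TMM scaling turned only the interaction of Per2 (0.0037) and DESeq2 only Per3 in GFP stress against GFP control (-0.0019).

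With each library left out, 25 differences crossed 0. In ZBTB7A control against GFP control the ranges were Arntl -0.0046 to 0.16, Clock -0.019 to 0.043, Per3 -0.083 to 0.032, Cry2 -0.026 to 0.046, Nr1d1 -0.036 to 0.098, Nr1d2 -0.096 to 0.011, Dbp -0.12 to 0.090 and Tef -0.032 to 0.042. In GFP stress against GFP control the ranges were Arntl -0.010 to 0.096, Per2 -0.14 to 0.026, Per3 -0.049 to 0.065, Nr1d1 -0.023 to 0.11, Nr1d2 -0.083 to 0.024, Dbp -0.17 to 0.0012 and Tef -0.046 to 0.028. In the interaction the ranges were Clock -0.0027 to 0.059, Per2 -0.082 to 0.12, Per3 -0.046 to 0.068 and Nr1d2 -0.038 to 0.069. For ZBTB7A stress against ZBTB7A control the ranges were Per2 -0.12 to 0.065, Per3 -0.036 to 0.063, Cry2 -0.039 to 0.014, Nr1d1 -0.074 to 0.017 and Nr1d2 -0.063 to 0.011. In ZBTB7A stress against GFP stress the ranges were Per3 -0.037 to 0.0057.

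No paired analysis was possible because no replicate number of the titles is shared between groups. With 5 to 8 libraries a group, the intervals of Per2, Dbp, Cry1 and Arntl are wide. The labels give neither the hour of collection nor the striatal share of the tissue. Number runs are passes of the title numbers and are not called batches by any label. Correlations across libraries describe these 23 libraries.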
